A study of Mus musculus with 12 samples.

Results

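The genes described here are Mt1, Mt2, Slc39a14 and Slc30a1, taken by symbol from a table of 25611 genes, in which each symbol stood on 1 row. All 4 were among the 13190 genes with enough reads to be tested. RNA of whole liver was sequenced from 12 male C57BL/6J mice that were 8 to 10 weeks old, in 3 groups of 4. Sham mice had an abdominal incision only, CLP mice had sepsis induced by cecal ligation and puncture, and CLP+DCA mice had CLP and were given dichloroacetate, an inhibitor of the pyruvate dehydrogenase kinases, at 25 mg/kg intraperitoneally 24 hr after surgery. All livers were collected 30 hr after surgery, 6 hr after DCA in the treated mice, and all mice were given saline subcutaneously. An injection 24 hr after surgery, 6 hr before collection, is listed for sham and CLP mice too. What it held in those mice is not stated here. The labels name no mice with DCA and without CLP, so an effect of DCA alone cannot be told apart from its effect in sepsis.

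Metallothioneins are small, cysteine-rich proteins that bind zinc and copper in the cytosol. The liver makes large amounts of them when zinc, glucocorticoids or IL-6 act on hepatocytes, and zinc then moves from plasma into the liver. Slc39a14 encodes ZIP14, an importer of zinc, manganese and non-transferrin-bound iron at the hepatocyte surface that belongs to the acute phase response. Slc30a1 encodes ZnT1, the exporter that moves zinc out of the cell. The zinc sensor MTF-1 binds metal response elements in front of Mt1, Mt2 and Slc30a1.

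On mm10, Mt1 (NCBI Gene 17748) lies on the plus strand at chr8:94179089-94180327 and Mt2 (NCBI Gene 17750) on the same strand at chr8:94172618-94173567, so that 5521 bases separate the end of Mt2 from the start of Mt1. The transcripts closest to these spans in GENCODE M21 have 3 exons each, with 549 exonic bases for Mt1 and 511 for Mt2. Slc39a14 (NCBI Gene 213053) lies on the minus strand at chr14:70303467-70351424, with 10 exons and 4926 exonic bases. Slc30a1 (NCBI Gene 22782) lies on the plus strand at chr1:191906781-191913247, with 2 exons and 5244 exonic bases.

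The bases in front of the 3 genes with a known metal response are shown because Mt1 and Mt2 on the one hand and Slc30a1 on the other had different fitted fold changes in septic liver. They come from the RefSeq promoters of GRCm38.p6, which held 3 of the 4 genes, and are written from 5′ to 3′ on the plus strand. Mt1 is shown from chr8:94178839-94179081, Mt2 from chr8:94172368-94172617 and Slc30a1 from chr1:191906531-191906766. Capitals mark the core of the metal response element, searched on both strands as TGCACNC or TGCGCNC.
Mt1: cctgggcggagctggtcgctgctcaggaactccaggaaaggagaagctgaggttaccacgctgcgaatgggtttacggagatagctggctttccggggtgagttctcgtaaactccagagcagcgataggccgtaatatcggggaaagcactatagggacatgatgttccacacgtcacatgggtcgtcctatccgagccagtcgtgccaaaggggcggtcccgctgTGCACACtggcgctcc
Mt2: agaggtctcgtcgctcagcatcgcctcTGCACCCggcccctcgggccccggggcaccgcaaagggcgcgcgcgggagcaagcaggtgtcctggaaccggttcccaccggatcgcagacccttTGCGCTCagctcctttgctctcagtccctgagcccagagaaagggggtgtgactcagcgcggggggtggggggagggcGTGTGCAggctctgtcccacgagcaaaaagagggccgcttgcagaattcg
Slc30a1: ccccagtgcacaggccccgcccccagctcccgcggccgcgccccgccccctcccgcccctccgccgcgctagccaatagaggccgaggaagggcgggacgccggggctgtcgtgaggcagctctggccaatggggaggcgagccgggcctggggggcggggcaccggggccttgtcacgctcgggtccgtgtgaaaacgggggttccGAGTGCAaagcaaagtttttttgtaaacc
Each RefSeq window reached from 250 bases before to 50 bases after the annotated start, and matches past the start are not shown. Within the 300 bases, Mt2 held 4 matches, of which 3 lie before the start, at bases -223, -128 and -50. Mt1 held 3 matches, with 1 before the start at base -23. Only 1 annotated start per gene was used, and the number of matches before it depends on that start. Slc30a1 held 2 matches, with 1 before the start at base -43. Of 32851 RefSeq promoters of that length, 25.7% held at least 1 match, 7.11% at least 2, 1.97% at least 3 and 0.517% at least 4. The palindrome TTCNNNGAA, to which STAT factors bind, was in none of the 3 windows and in 8.3% of all promoters. The core of the antioxidant response element, TGACNNNGC on either strand, was found 1 time each in Mt2 and Slc30a1 and in 12.4% of all promoters. It overlapped no metal response element in these windows. The Mt1 window held none, but bases more than 50 past the annotated start were not searched. An element there would have been missed.

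Between 24436513 and 44266819 reads were counted per mouse. Levels are given as CPM, the reads of a gene per 1e+06 reads, on library sizes scaled by the trimmed mean of M values (TMM). Fold changes and adjusted p-values are from edgeR's quasi-likelihood test on all 12 mice with Benjamini-Hochberg adjustment over the 13190 genes, at a false discovery rate of 0.05. One library stood apart, CLP+DCA replicate 3. Acute phase genes took 34.2% of its reads against 16.1% to 20.3% in the other CLP+DCA mice, 20.9% to 35.3% in CLP and 12.4% to 14.5% in sham. It entered the estimate of the spread in every comparison. Without it, 3238 genes instead of 456 passed the test in CLP versus sham, so results are given with and without this mouse. Leaving it out also lowers the CLP+DCA level of every gene that is high in it, acute phase genes among them. Comparisons of CLP+DCA without this mouse are therefore not an independent test of DCA.

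Of the 4 genes, Mt2 rose in CLP versus sham, at 3.98-fold (95% confidence interval 1.93 to 8.20, n = 4 mice per group). Mt1 was 3.04-fold and Slc39a14 1.92-fold higher without passing the test, although all 4 CLP mice lay above all 4 sham mice for each. Of all tested genes, 3.46% passed in this comparison and 12.2% had every CLP mouse above every sham mouse. Slc30a1 had a ratio of 0.976 (0.817 to 1.17). Against sham or against CLP, none of the 4 genes passed in CLP+DCA, where 0.0379% and 0.00758% of all genes did. Both comparisons with sham share the same 4 sham mice.

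**Figure D1:**
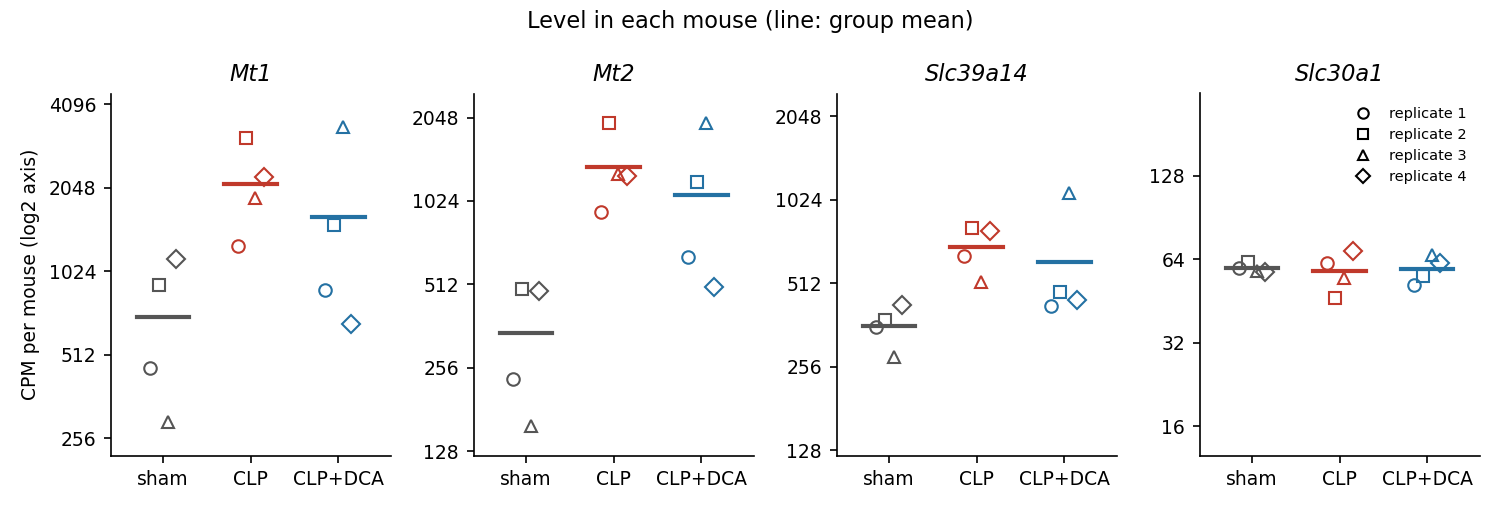
Level of Mt1, Mt2, Slc39a14 and Slc30a1 in CPM (log2 axis, with the same number of doublings in each panel) in each of 12 mice, by group, with the symbol giving the replicate and a line at the group mean. The 4 CLP mice lie above the 4 sham mice for Mt1, Mt2 and Slc39a14, CLP+DCA replicate 3 is the highest of its group in all 4 panels, and Slc30a1 stays between 46.4 and 68.3 CPM.

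In sham replicates 1 to 4, Mt2 was at 232, 492, 158 and 484 CPM. In CLP it was at 937, 1957, 1280 and 1259 CPM. In CLP+DCA it was at 643, 1200, 1958 and 499 CPM. The lowest CLP mouse and the lowest CLP+DCA mouse both lay above the highest sham mouse, while CLP+DCA and CLP overlapped. Mt2 was 342 ± 172 CPM for sham, 1358 ± 429 for CLP and 1075 ± 661 for CLP+DCA (mean ± SD, n = 4). The log2 fold change of CLP versus sham was 1.99 ± 0.48 (SE, adjusted p = 0.0469). This p lies at the threshold: it was 0.0510 with edgeR's older quasi-likelihood estimate, 0.0502 with voom and 0.000536 with DESeq2. With each mouse left out in turn it ranged from 0.00927, without CLP+DCA replicate 3, to 0.129, without CLP replicate 2. It stayed past the threshold without CLP replicate 3, CLP+DCA replicate 3 or CLP+DCA replicate 4, and missed it without any one of the other mice.

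Mt1 was the more abundant metallothionein in every mouse. Its level in sham was 458, 914, 292 and 1132 CPM. In CLP it was 1259, 3098, 1885 and 2244 CPM. In CLP+DCA it was 877, 1504, 3402 and 662 CPM. CLP lay above sham without overlap, whereas 2 CLP+DCA mice lay within the range of sham and CLP+DCA replicate 3 exceeded every CLP mouse. The means were 699 ± 391 CPM for sham, 2122 ± 768 for CLP and 1611 ± 1246 for CLP+DCA (SD, n = 4). The log2 fold change of CLP versus sham was 1.60 ± 0.55 (SE, adjusted p = 0.0910). Without CLP+DCA replicate 3 it was 1.60 ± 0.44 (adjusted p = 0.0261), which passed the test. Sham mice themselves differed 3.88-fold between the lowest and the highest, and the sham mice high in Mt1 were also high in Mt2.

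Slc39a14, the importer, was at 357, 377, 279 and 427 CPM in sham. It was at 645, 810, 520 and 793 CPM in CLP. In CLP+DCA it was at 425, 478, 1089 and 446 CPM. CLP lay above sham without overlap. CLP+DCA replicate 3 was the highest of all 12 mice, and the other 3 CLP+DCA mice lay below every CLP mouse. The log2 fold change of CLP versus sham was 0.94 ± 0.29 (SE, adjusted p = 0.0749), and without CLP+DCA replicate 3 it was 0.94 ± 0.16 (adjusted p = 0.00447).

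Slc30a1, the exporter, was at 59.4, 62.3, 57.9 and 57.6 CPM in sham. In CLP it was at 62.1, 46.4, 54.8 and 68.3 CPM. In CLP+DCA it was at 51.6, 55.8, 66.3 and 61.8 CPM. All groups overlapped, and the lowest and the highest of the 12 mice were both CLP mice. The log2 fold change of CLP versus sham was -0.03, with a 95% confidence interval of -0.29 to 0.22 (adjusted p = 0.859), so a change of the size of the fitted Mt1 or Mt2 values lay outside the interval.

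**Figure D2:**
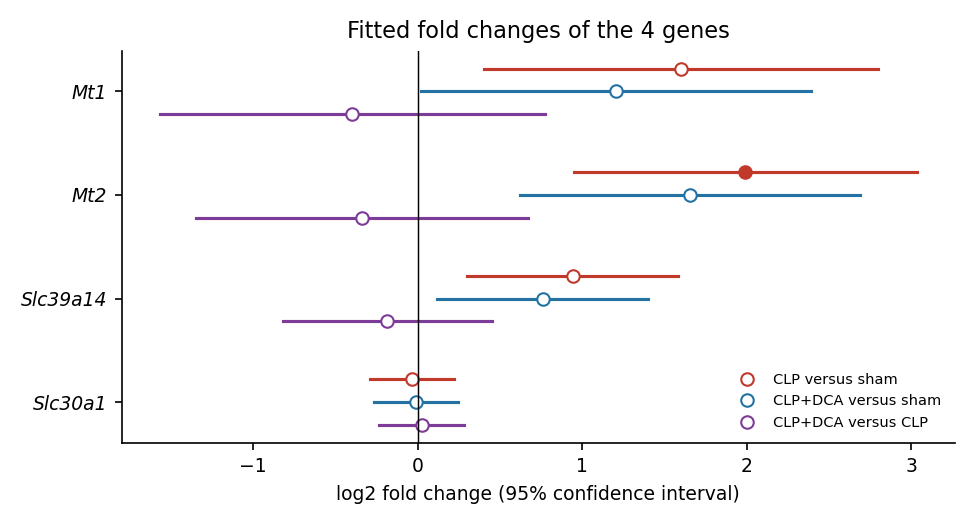
Fitted log2 fold change of the 4 genes in 3 comparisons, with 95% confidence intervals, from edgeR's quasi-likelihood fit to all 12 mice. A filled point passed the false discovery rate of 0.05, which only Mt2 in CLP versus sham did, and the intervals of CLP+DCA versus CLP all include 0.

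The counts were set beside the same shares of all tested genes. In CLP versus sham, 1 of the 4 genes passed the test, against 3.46% of all genes in either direction and 2.02% that were higher in CLP. At an unadjusted p under 0.05, 3 of the 4 passed, against 29.4% of all genes. Every CLP mouse lay above every sham mouse for 3 of the 4, against 12.2% of all genes. With CLP+DCA replicate 3 left out, 3 of the 4 passed the adjusted threshold, against 24.4% of all genes. DESeq2 on all 12 mice called 3 of the 4, against 13% of the genes to which it gave an adjusted p, and voom called none, against 1.4% of all genes. For CLP+DCA against sham, DESeq2 called 1.83% of all genes and voom 0.0303%, and against CLP 0.815% and 0.00758%.

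For CLP+DCA against sham, none of the 4 genes passed the test with edgeR, against 0.0379% of all genes. At an unadjusted p under 0.05, 3 of the 4 did, against 13.4% of all genes. The log2 fold change of Mt2 was 1.65 ± 0.47 (SE, adjusted p = 0.242), and all 4 CLP+DCA mice lay above all sham mice, which held for 4.78% of all genes. DESeq2 on all 12 mice gave Mt2 an adjusted p of 0.0210. Mt1 had a log2 fold change of 1.21 ± 0.54 (adjusted p = 0.367) and Slc39a14 one of 0.76 ± 0.29 (adjusted p = 0.309). The 3 values moved with 1 mouse: without CLP+DCA replicate 3 they were 1.19 ± 0.43 for Mt2, 0.54 ± 0.46 for Mt1 and 0.32 ± 0.17 for Slc39a14, with adjusted p-values of 0.416, 0.781 and 0.605. Slc30a1 had a log2 fold change of -0.01 ± 0.12 (adjusted p = 0.974).

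CLP+DCA versus CLP addresses whether DCA changed the levels in septic liver. None of the 4 genes passed with edgeR, DESeq2 or voom, against 0.00758% of all genes with edgeR, and none did at an unadjusted p under 0.05, against 10.5% of all genes. None of the 4 had every CLP+DCA mouse below every CLP mouse, against 2.05% of all genes. The log2 fold change was -0.40 for Mt1 (95% confidence interval -1.57 to 0.77, adjusted p = 0.828). It was -0.34 for Mt2 (-1.34 to 0.67, adjusted p = 0.83). For Slc39a14 it was -0.18 (-0.82 to 0.45, adjusted p = 0.858), and for Slc30a1 0.02 (-0.23 to 0.28, adjusted p = 0.953). For Mt1 and Mt2 the intervals held both no difference and ratios as low as 0.337 and 0.394. Without CLP+DCA replicate 3, the values were -1.07 ± 0.48 for Mt1 (adjusted p = 0.171), -0.80 ± 0.44 for Mt2 (adjusted p = 0.247) and -0.62 ± 0.18 for Slc39a14 (adjusted p = 0.0588). That mouse was the highest of its group for each of these genes, so leaving it out lowers their CLP+DCA level. In the fit without it, 4.99% of all genes passed in CLP+DCA versus CLP and 0.0828% in CLP+DCA versus sham.

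By mean level, the order was sham, CLP+DCA and CLP for Mt1, Mt2 and Slc39a14. Neighbouring groups differed by less than the larger SD, except sham and CLP+DCA for Mt2, whose ranges did not overlap. For Slc30a1 the order was CLP, CLP+DCA and sham, and the means were 57.9, 58.9 and 59.3 CPM. Per kilobase of exon, Mt1 was at 1273 CPM in the sham group, 3865 in the CLP group and 2935 in the CLP+DCA group. Mt2 was at 668, 2658 and 2104 CPM per kilobase. The transporters were lower, with 73.0, 140 and 124 CPM per kilobase for Slc39a14 and 11.3, 11.0 and 11.2 for Slc30a1. The order Mt1, Mt2, Slc39a14 and Slc30a1 held in each group mean.

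**Figure D3:**
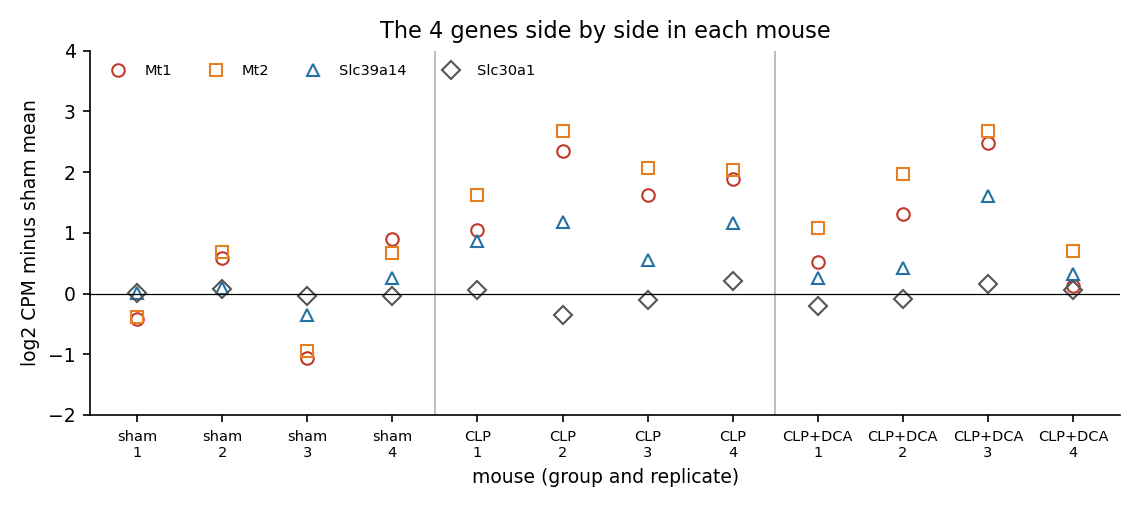
Level of each gene in each mouse as log2 CPM less the sham mean of that gene, by group and replicate. In CLP+DCA, replicate 3 is the highest for all 4 genes, while in replicate 4 Mt1 lies 0.12 above the sham mean and Mt2 0.71 above it.

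Mt1 and Mt2 did not differ from sham by the same factor. In sham, 1.97, 1.86, 1.85 and 2.34 reads of Mt1 were counted for each read of Mt2 in replicates 1 to 4. The ratio was 1.34, 1.58, 1.47 and 1.78 in CLP. It was 1.36, 1.25, 1.74 and 1.33 in CLP+DCA. Every CLP mouse and every CLP+DCA mouse lay below every sham mouse, and the septic groups overlapped. The ratio was 2.0 ± 0.23 for sham, 1.55 ± 0.19 for CLP and 1.42 ± 0.22 for CLP+DCA (mean ± SD, n = 4). It does not depend on how libraries are scaled. On the log2 scale the ratio fell by 0.38 in CLP versus sham and by 0.50 in CLP+DCA versus sham. Both had p = 0.0286 in a two-sided exact permutation test over mice, the smallest value that 70 arrangements allow, and 0.0429 after adjustment over 3 comparisons. CLP+DCA versus CLP differed by -0.13 (exact permutation p = 0.371). Without CLP+DCA replicate 3 that difference was -0.23 (exact permutation p = 0.0857).

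Reads of both genes together made up 0.0481% to 0.166% of a sham library, 0.215% to 0.432% of a CLP library and 0.120% to 0.492% of a CLP+DCA library. The ratio did not follow this sum across groups in a single line. Sham replicate 4 had the highest ratio of all mice at a share of 0.166%, whereas CLP+DCA replicate 1 had 1.36 at a share of 0.165%. Mt1 and Mt2 have similar coding sequences, and how reads that fit both were counted is not given in the sources used here.

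**Figure D4:**
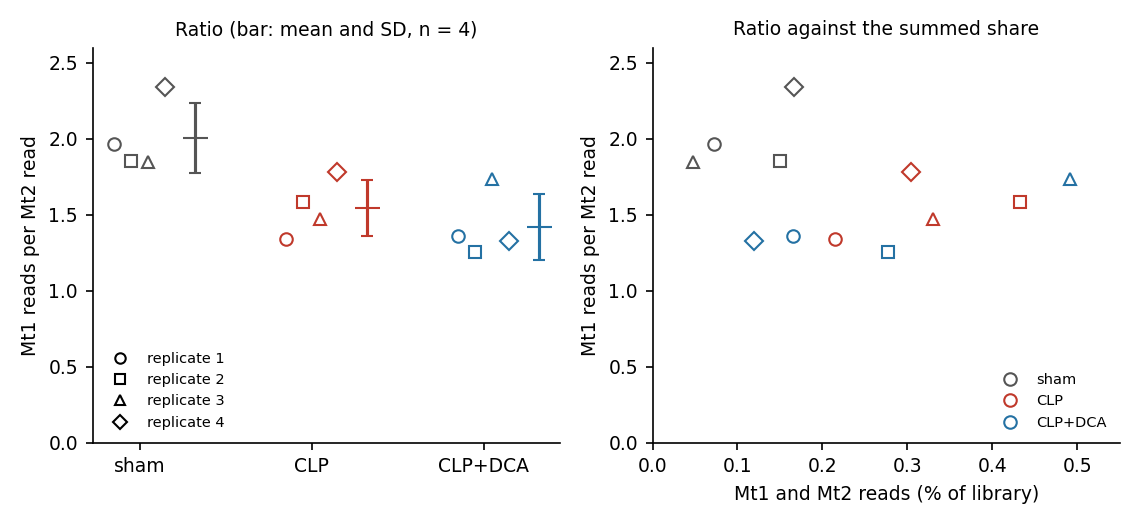
Left, Mt1 reads per Mt2 read in each mouse by group, with the mean and SD (n = 4) beside the points. Right, the same ratio against the share of the library, in percent, taken by both genes. The sham mice lie between 1.85 and 2.34 and all others between 1.25 and 1.78, also where the share of both genes is alike.

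The other metallothionein genes lie in the same cluster on chromosome 8, at a distance of 18.5 kb for Mt3 and 33.6 kb for Mt4 from Mt2. Mt3, best known from brain, had 0, 0, 0 and 1 reads in sham and 8, 21, 7 and 8 reads in CLP. It had 1, 0, 35 and 0 reads in CLP+DCA, where replicate 3 held all but 1 of the reads. Mt4, best known from squamous epithelium, had 0 reads in every sham mouse, 0, 0, 21 and 1 in CLP and 0, 1, 0 and 0 in CLP+DCA. Neither passed the filter of the edgeR fit. In an exact permutation test on log2 CPM, Mt3 in CLP versus sham had p = 0.0286, the smallest possible, and 0.171 after adjustment over 6 tests of the 2 genes. DESeq2, which was run without that filter, called Mt3 higher in CLP than in sham and called Mt4 in no comparison. Of the 5 genes within 100 kb of Mt1 and Mt2, the remaining one, Nup93, which encodes a nucleoporin, had a log2 fold change of 0.32 ± 0.27 in CLP versus sham (SE, adjusted p = 0.432).

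Slc39a14 belongs to the ZIP family, whose members bring zinc into the cytosol from outside the cell or from organelles. Of 14 ZIP genes, 13 were tested, and none passed in any of the 3 comparisons with edgeR. In CLP versus sham, 10 were higher and 3 lower, with a median log2 fold change of 0.28 beside 0.02 over all genes, and 5 were higher and none lower at an unadjusted p under 0.05, against 29.4% of all genes. The unadjusted counts were 3 higher and 1 lower for CLP+DCA against sham and 1 lower for CLP+DCA against CLP. DESeq2 called 3 ZIP genes in CLP versus sham, which were Slc39a11, Slc39a13 and Slc39a14, and voom none. Of all genes, DESeq2 called 13% and voom 1.4%. The smallest p-values were those of Slc39a13, Slc39a11 and Slc39a14. Slc39a13, a transporter of intracellular vesicles, was at 9.95 CPM in sham and 15.4 in CLP, a log2 fold change of 0.63 ± 0.19 (SE, adjusted p = 0.0686). Slc39a11 was at 28.4 and 43.5 CPM, a log2 fold change of 0.62 ± 0.18 (adjusted p = 0.0686). Without CLP+DCA replicate 3, 5 ZIP genes passed in CLP versus sham, all higher, which were Slc39a1, Slc39a7, Slc39a11, Slc39a13 and Slc39a14, against 24.4% of all genes in that fit. Slc39a11 was then also lower in CLP+DCA than in CLP, by a log2 fold change of -0.73 ± 0.15 (adjusted p = 0.0281).

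Slc30a1 belongs to the ZnT family, whose members move zinc out of the cytosol. Of 10 ZnT genes, 8 were tested and none passed in any comparison with edgeR. In CLP versus sham, 5 were higher and 3 lower, with a median log2 fold change of 0.28, and at an unadjusted p under 0.05 there were 3 higher and 1 lower, against 29.4% of all genes. The unadjusted counts were 2 higher and 1 lower for CLP+DCA against sham and 1 lower for CLP+DCA against CLP. DESeq2 called Slc30a5 in CLP versus sham, against 13% of all genes, and voom no ZnT gene, against 1.4%. Slc30a5, which loads zinc into the early secretory pathway, was at 63.4 CPM in sham and 112 in CLP, a log2 fold change of 0.82 ± 0.25 (SE, adjusted p = 0.0708). Slc30a4 was at 15.3 and 23.4 CPM, a log2 fold change of 0.62 ± 0.22 (adjusted p = 0.10). Slc30a10, a manganese exporter, was at 32.2 and 50.6 CPM, a log2 fold change of 0.65 ± 0.25 (adjusted p = 0.118). These 3 passed, all higher, when CLP+DCA replicate 3 was left out, against 24.4% of all genes. The interval of Slc30a1 did not include the fitted value of any of them. For CLP+DCA against sham, the smallest p of both families was that of Slc30a3, at 0.690 CPM in sham and 0.180 in CLP+DCA, a log2 fold change of -1.94 ± 0.34 (adjusted p = 0.0976), and DESeq2 called it.

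**Figure D5:**
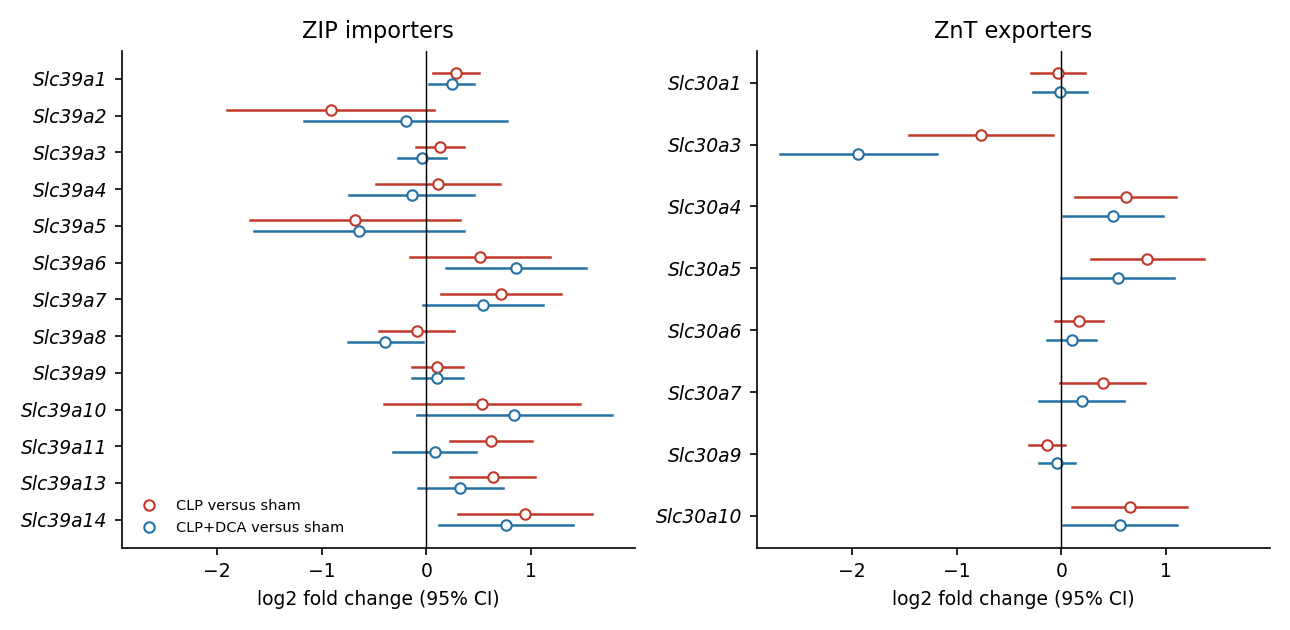
Fitted log2 fold change with 95% confidence interval of 13 ZIP importers (left) and 8 ZnT exporters (right), in CLP mice (red) and CLP+DCA mice (blue), each against sham. No point is filled because none passed the false discovery rate of 0.05. Slc39a14 has the highest fitted value of the ZIP genes in CLP versus sham, and Slc30a1 lies near 0 in both comparisons.

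Among MTF-1 and its targets, a list of 8 genes that holds Mt1, Mt2 and Slc30a1, Mt2 rose and Gclc fell in CLP versus sham with edgeR, against 3.46% of all genes. DESeq2 and the edgeR fit without CLP+DCA replicate 3 called Mt1 as well, and voom called Gclc alone. Gclc, the catalytic subunit of glutamate-cysteine ligase in glutathione synthesis, was at 231 CPM in sham and 136 in CLP, a log2 fold change of -0.76 ± 0.14 (SE, adjusted p = 0.0263). The list's median log2 fold change was 0.08. Mtf1 itself was at 19.9 CPM in sham and 19.5 in CLP, a log2 fold change of -0.03 ± 0.08 (adjusted p = 0.844). Of 11 NRF2 targets tested with edgeR on all 12 mice, 2 fell and none passed as higher. These were Gclc and Gstm1, a glutathione S-transferase with a log2 fold change of -2.30 ± 0.56 (adjusted p = 0.0486). In the fit without CLP+DCA replicate 3, 2 NRF2 targets were higher (G6pdx and Hmox1) and 3 lower, and DESeq2 called 1 higher (G6pdx) and 4 lower. Of all genes, the fit without that mouse called 24.4%, DESeq2 13% and voom 1.4%. Gclc stands in both lists.

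Genes of other metals that metallothionein or ZIP14 handle were also examined in CLP versus sham. Of 11 copper genes, none passed with edgeR or voom and 2 with DESeq2, while 3 were higher and 1 lower at an unadjusted p under 0.05, against 29.4% of all genes. The smallest p-values were those of the metalloreductase Steap4, with a log2 fold change of 2.77 ± 0.71 (SE, adjusted p = 0.0544), and of Cp, the plasma ferroxidase ceruloplasmin, with 1.97 ± 0.52 (adjusted p = 0.0576). Of 11 genes of iron and manganese handling, none passed with edgeR or voom and 3 with DESeq2, while 3 were higher and 1 lower at an unadjusted p under 0.05, against 29.4% of all genes. The smallest p-values were those of the ferritin light chain gene Ftl1, with a log2 fold change of -0.62 ± 0.15 (adjusted p = 0.0511), and of the iron importer Slc11a2, with 1.40 ± 0.48 (adjusted p = 0.0933). Without CLP+DCA replicate 3, 5 genes of each list passed, against 24.4% of all genes. Of the copper genes 3 were higher and 2 lower, and of the iron and manganese genes 4 were higher and 1 lower. DESeq2 called 13% of all genes and voom 1.4%. The iron and manganese list shares genes with the transporter families, among them Slc30a10 and Slc39a8.

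Metallothioneins and ZIP14 are known to respond to IL-6 and glucocorticoids. Of 15 genes of the IL-6 and STAT3 pathway tested with edgeR on all 12 mice, 5 rose in CLP versus sham and none passed as lower, with a median log2 fold change of 1.22, against 3.46% of all genes. They included Lbp, the lipopolysaccharide binding protein, with a log2 fold change of 1.38 ± 0.25 (SE, adjusted p = 0.0232), and Cebpd, a transcription factor of the acute phase, with 2.17 ± 0.39 (adjusted p = 0.0232). With CLP+DCA replicate 3 left out, 9 of the 15 passed, all higher, against 24.4% of all genes. DESeq2 called 8 and voom 3, all higher, against 13% and 1.4% of all genes.

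Of 13 glucocorticoid receptor targets, 3 rose and 1 fell in CLP versus sham with edgeR on all 12 mice. Fkbp5, a co-chaperone of the receptor, rose by a log2 fold change of 2.04 ± 0.22 (SE, adjusted p = 0.00633), and Dusp1, a MAP kinase phosphatase, had one of -1.19 ± 0.25 (adjusted p = 0.0355). Both DESeq2 and the edgeR fit without CLP+DCA replicate 3 called 5 higher and 2 lower, and voom called 2 higher. Of 30 acute phase genes, 15 rose with edgeR on all 12 mice and none passed as lower, with a median log2 fold change of 1.36. Saa3 and Orm2 had the smallest p-values, with log2 fold changes of 8.75 ± 0.76 (adjusted p = 0.00139) and 2.36 ± 0.35 (adjusted p = 0.0173). Both DESeq2 and the edgeR fit without CLP+DCA replicate 3 called 22 acute phase genes higher and 2 lower, the latter being Serpina1b and Serpina1d, and voom called 11 higher. These counts stand beside 3.46% of all genes with edgeR on all mice, 24.4% without that mouse, 13% with DESeq2 and 1.4% with voom. The acute phase list shares genes with the lists above. Among them are Fgb, Fgg, Hp and Lbp of the IL-6 and STAT3 pathway and Cp and Steap4 of the copper genes.

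For CLP+DCA against sham, edgeR called Per1 of the glucocorticoid list and Saa3 of the acute phase list, both higher, and no gene of the other lists, with and without CLP+DCA replicate 3. DESeq2 called more, all higher in the next 3 lists, with 4 genes of the IL-6 and STAT3 pathway, 4 glucocorticoid receptor targets and 10 acute phase genes. It also called Gclc and Osgin1 of the NRF2 targets and Slc30a3, all lower, besides Mt2. Of all genes in this comparison, DESeq2 called 1.83% and edgeR 0.0379%, or 0.0828% without CLP+DCA replicate 3. For CLP+DCA against CLP, edgeR on all 12 mice called no gene of these lists. Without CLP+DCA replicate 3 it called 2 genes of the IL-6 and STAT3 pathway (Osmr and Socs3) and 7 acute phase genes, all lower in CLP+DCA, and 4 glucocorticoid receptor targets (Dusp1, Hsd11b1, Per1 and Tsc22d3), all higher. In that fit Slc39a11 and Cp were also lower in CLP+DCA. The mouse left out had been set apart by its high acute phase share, so lower acute phase genes without it follow in part from that choice. DESeq2 on all 12 mice called Dusp1, Per1 and Tat, all higher. Of all genes in CLP+DCA versus CLP, DESeq2 called 0.815% and edgeR 0.00758%, or 4.99% without CLP+DCA replicate 3.

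The genes with the most similar pattern were found by the root mean square difference, over 12 mice, of log2 CPM less the sham mean. For Mt1 these were C4bp-ps1 at 0.37, Ctgf at 0.38 and Mt2 at 0.39, beside a median of 1.41 over all genes. C4bp-ps1 is named as a pseudogene, and reads of a pseudogene and of its related gene may be hard to separate. For Mt2 they were Mt1 at 0.39, C4bp-ps1 at 0.40 and Cebpd at 0.44, beside a median of 1.67. For Slc39a14 they were Afdn at 0.12, Itih4 at 0.13 and Zfp251 at 0.14, beside a median of 0.80. Itih4 encodes an acute phase inhibitor made by hepatocytes. For Slc30a1 they were Sertad2 at 0.07, Fam133b at 0.10 and Cand1 at 0.11, beside a median of 0.35. Among 13189 other genes, Slc39a14 had rank 171 in likeness to Mt1 and Slc30a1 rank 6921. Seen from Slc39a14, the likeness was not close: Mt1 had rank 4600 at 0.71, near the median of 0.80. Slc30a1 had rank 6003 and Mt2 rank 9593 in likeness to Slc39a14.

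Whole liver holds several cell types. In bulk RNA, fewer cells of a type, less RNA per cell and a change of the marker genes themselves within the cells cannot be told apart. The summed level of 8 hepatocyte markers, none of them at 0 in any mouse, was 62141 to 85152 CPM in sham, 32627 to 46632 in CLP and 29248 to 56231 in CLP+DCA. That of 8 neutrophil markers, 1 of which had a mouse at 0, was 6.4 to 9.11 CPM in sham, 28.6 to 37.0 in CLP and 6.45 to 45.4 in CLP+DCA. That of 8 Kupffer cell and macrophage markers was 149 to 253, 234 to 311 and 197 to 386 CPM. The 8 lymphocyte markers, of which 4 had a mouse at 0, summed to 1.81 to 3.83, 0.449 to 1.40 and 0.704 to 2.43 CPM. The endothelial markers, also 8, summed to 128 to 170, 158 to 203 and 127 to 182 CPM, and the 8 markers of stellate cells and cholangiocytes to 26.6 to 37.8, 30.1 to 231 and 28.0 to 55.9 CPM. The summed levels of hepatocyte and lymphocyte markers were lower and that of neutrophil markers higher in every CLP mouse than in every sham mouse, in the same mice in which Mt1, Mt2 and Slc39a14 were higher. A sum is carried by its most abundant genes. Gene by gene, 3 of 8 hepatocyte markers were lower at an unadjusted p under 0.05 and 1 marker passed the adjusted threshold. Over all genes these shares were 29.4% and 3.46% in either direction. Of 7 neutrophil markers tested, 5 were higher and 1 lower at an unadjusted p under 0.05, and 1 passed. All 3 lymphocyte markers tested were lower at an unadjusted p under 0.05, and none passed. By the same unadjusted threshold, 5 of 8 endothelial markers were higher and none lower, and none passed. For stellate cells and cholangiocytes, 4 of 8 were higher and none lower, and 1 passed. For Kupffer cells and macrophages, 1 of 8 was higher and none lower, and none passed. The part of these cell types in the results was not tested.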

How the data were processed

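RNA of 12 whole livers was isolated with Trizol, poly(A)-enriched and sequenced paired-end at 100 bp with the unstranded TruSeq kit. Per the labels and methods, the authors aligned reads to mm10 with STAR 2.5 and made counts per gene with featureCounts (Subread 1.5.0-p1). The deposited values are raw read counts. The gene annotation is not given in the sources used here. Each mouse was 1 replicate, grouped by its label.

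The versions were 4.0.16 for edgeR, 3.58.1 for limma (voom), 1.42.0 for DESeq2 and 4.3.3 for R. Counts were filtered with filterByExpr (minimum count 10), scaled by TMM and fitted with edgeR's robust quasi-likelihood model in its newer form (legacy = FALSE) to all 12 mice. The package's default, the older form, was the alternative. Log2 CPM used a prior count of 2. The SE is the log2 fold change over the square root of F. Intervals cover the spread between mice. Without molecular identifiers, reads are not independent molecules. Scripts were tested on simulated data.

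The 4 genes, the lists and the tests were chosen with earlier results of these data known. Named are the 4 genes, the 3 ZIP and 3 ZnT genes and the 2 genes of every other list with the smallest p in CLP versus sham, genes that passed in other comparisons, neighbours within 100 kb and 3 similar genes each. Mtf1, Slc30a3 and genes that passed only with DESeq2 or without 1 mouse were added after their values were seen. Replicate numbers were not treated as pairs, because the labels state no pairing and 1 of 12 correlations was over 0.1. No replicates were duplicates.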

Additional observations from a re-analysis of the deposited data

Results flagged for a closer look

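Slc39a14 in CLP+DCA was marked because 1 mouse lies far from the rest of its group. On the log2 CPM scale, the gap between CLP+DCA replicate 3 and the next mouse was 0.876 of the range of the group, above Dixon's 95% critical value for a group of 4. Of 15 groups of 4 mice examined, for the 4 genes and the Mt1 to Mt2 ratio, this was the only 1 past that value, and chance gives about 1 in 20. The same mouse was highest in its group for Mt1, Mt2 and Slc30a1, with gaps below the critical value.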

How the results depend on the processing

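Of 18 results (12 for the 4 genes, 3 for the ratio and 3 counts of genes), 6 kept their direction and side of the threshold under every alternative. All 6 were results that did not pass, so no result that passed did so under every alternative. Mt2 in CLP versus sham was higher under all 24 alternatives. It missed the threshold with library size alone (log2 fold change 1.80, adjusted p = 0.0525), no filter (1.97, 0.0599), voom (2.15, 0.0502) and the older quasi-likelihood form (1.99, 0.0510). Leaving out 1 mouse gave 1.75 to 2.22. Mt1 in CLP versus sham passed with DESeq2 on 12 mice (1.60) and on 8 mice (1.60), edgeR on 8 mice (1.60) and the exact permutation test of the single gene (1.73), and leaving out 1 mouse gave 1.34 to 1.93. Slc39a14 passed with the same 4 (0.94, 0.94, 0.94 and 0.94), and leaving out 1 mouse gave 0.84 to 1.06. Mt2 in CLP+DCA versus sham passed with DESeq2 on 12 mice (1.65) and 8 mice (1.65) and the exact permutation test (1.61). The permutation p of a single gene is not adjusted for the number of genes. It passes whenever all 4 mice of a group lie above all 4 of the other. That held for 12.2% of all genes in CLP and 4.78% in CLP+DCA, each against sham. Slc30a1, which never passed, changed sign when 1 mouse was left out, with ranges of -0.12 to 0.057 in CLP versus sham, -0.073 to 0.047 in CLP+DCA versus sham and -0.067 to 0.11 in CLP+DCA versus CLP.

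The genes past the threshold in CLP versus sham numbered 456, and 296 with library size alone, 234 with no filter, 1894 and 3428 with DESeq2 on 12 and 8 mice, 185 with voom, 2473 with edgeR on 8 mice and 11 to 3238 with 1 mouse left out. CLP+DCA versus sham had 5, and 3 with library size alone, 247 and 169 with DESeq2, 0 with edgeR on 8 mice and 1 to 11 with 1 mouse left out. CLP+DCA versus CLP had 1, and 3 with the 1 CPM filter, 136 and 80 with DESeq2, 0 with edgeR on 8 mice and 0 to 663 with 1 mouse left out. Library size alone moved the median log2 fold change of all genes to -0.15 in CLP versus sham and 0.12 in CLP+DCA versus CLP, and 45.9% instead of 58.6% of the genes past the threshold were then higher in CLP. The cause of the differences was not tested.

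The labels state no link between same-numbered mice. Correlations ran from -0.46 to 0.55 over 12 pairs and 3 of 12 mice were closest to their own number, which cannot exclude a shared batch. With the replicate block, 78 genes passed in CLP versus sham and 3 in CLP+DCA versus CLP, and Mt2 in CLP versus sham had a log2 fold change of 1.97 (adjusted p = 0.0947). The Mt1 to Mt2 ratio with the block differed by -0.38 in CLP and -0.50 in CLP+DCA versus sham (exact permutation p = 0.125, the smallest possible). With 1 mouse left out and no block, the ratio differed by -0.45 to -0.30 and -0.60 to -0.42. The exact permutation p was then 0.0286 to 0.0571 in each comparison, with 0.0571 without a sham mouse. In each comparison, 4 of the 8 fits with 1 mouse left out passed. The ratios stayed fully apart from sham in all of them, so passing depended on the few arrangements possible and not on overlap. Counts of the lists without CLP+DCA replicate 3 and with DESeq2 and voom were added after the data were seen.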
